A study of Rattus norvegicus with 6 samples.

Results

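H19, Igf2, Gpc3, Afp, Dlk1 and Cdkn1c are growth genes that are strongly active in the fetus. Some of them are imprinted (expressed from the copy of 1 parent only), and others mark the fetal liver and liver tumours. All 6 genes were followed here in the livers of rats with a ligated bile duct. Members were every non-control probe whose RefSeq accession belongs to 1 of the 6 genes. This gave 7 probes, 2 of them for Cdkn1c, of 30367 probes and 15443 named genes on the array. H19 encodes a long non-coding RNA and the other 5 genes encode proteins. H19, Igf2 and Cdkn1c lie on rat chromosome 1, Dlk1 on chromosome 6, Afp on chromosome 14 and Gpc3 on chromosome X.

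Liver RNA of 6 rats was hybridised to 1-colour Agilent arrays, each rat to its own array. The normal group held 3 normal rats, and the fibrosis group held 3 rats in which tying off the bile duct had produced hepatic fibrosis. Strain, sex, age, genetic background, time since ligation and whether the normal rats had a sham operation are not given in the sources used here, and how the 6 rats were selected for the arrays is not stated either. All 10 hepatocyte markers checked were well above background on every array, so both groups read as liver.

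H19 and Igf2 are neighbours with opposite imprints: H19 is transcribed from the maternal copy and Igf2 from the paternal copy, and a shared control region sets which of them is active on each copy. IGF2 is a fetal growth factor that signals through the IGF1 receptor, while H19 RNA and the CDK inhibitor encoded by Cdkn1c (p57) restrain growth. In rodents Igf2, H19 and Afp are abundant in fetal liver and are turned down in the hepatocytes after birth, and Afp and GPC3 are used as markers when they return in liver cancer. The arrays read total RNA and do not tell the parental copies apart.

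H19 RNA also carries a microRNA: in the RefSeq annotation of the GRCr8 assembly, Mir675 lies inside H19. Its 2 mature products are shown because H19 RNA is their precursor, and the capitals mark the seed (bases 2 to 8), the stretch that pairs with targets. The RefSeq entries place the 5p arm at chr1:207161800-207161821 and the 3p arm at chr1:207161766-207161786, both on the minus strand.
rno-miR-675-5p: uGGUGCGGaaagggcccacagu
rno-miR-675-3p: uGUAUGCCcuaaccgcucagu
Neither seed was shared with another of the 724 rat mature miRNAs in the table. Mature miRNAs were not measured on these arrays.

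Signals are given below as a percent of the spot brightness at the 75th percentile of each array's non-control spots, which puts the 6 arrays on 1 scale. Each probe was printed in 2 spots. A spot is called marked where the scanner software set it aside as uneven or out of step with its copies, and well above background where the software found its signal clear of the local background. Levels of different probes are not set against each other, because probes differ in brightness. Changes are log2 differences, fibrosis minus normal, from a limma fit over all tested probes, called at a Benjamini-Hochberg adjusted p under 0.05. Leaving out marked spots was the main setting, and keeping them, which gives every probe all 6 arrays, is shown beside it.

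Of the 7 probes, 6 were tested and 3 were called: H19 and Gpc3 rose and Igf2 fell, while Afp and both Cdkn1c probes did not pass. Dlk1 did not reach the level needed for a test. Over all 12620 probes tested, 20% were called, 15.2% as higher and 4.83% as lower in fibrosis; with marked spots kept, 19.1% of 19731 were called, 12.4% as higher and 6.79% as lower. The groups of arrays did not overlap for H19, Gpc3 and Igf2, 3 of the 6 tested probes, against 38.4% of all probes with marked spots kept (19.1% higher and 19.3% lower). The 6 tested probes had a median log2 difference of -0.07, against -0.01 over all probes; they did not move in 1 direction.

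**Figure D1:**
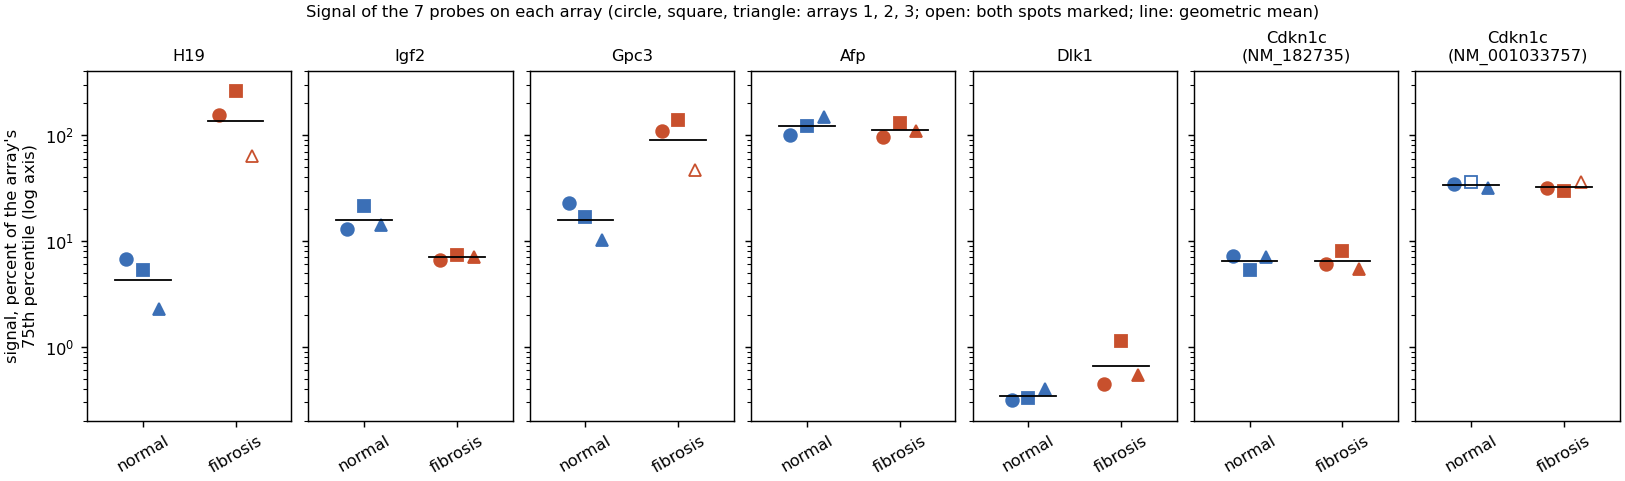
Signal of the 7 probes on each of the 6 arrays, as a percent of the array's 75th percentile on a log axis, with normal arrays in blue and fibrosis arrays in orange; circle, square and triangle are arrays 1, 2 and 3 of a group, open symbols are values from spots that were both marked, and the line is the geometric mean of the 3 arrays. The 3 fibrosis arrays lie above all normal arrays for H19 and Gpc3 and below them for Igf2, and the groups overlap for Afp and both Cdkn1c probes. Dlk1 also lies higher on the fibrosis arrays, but it was well above background on 0 normal arrays and 1 fibrosis array.

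H19 stood at 6.69%, 5.27% and 2.27% of the 75th percentile on normal arrays 1, 2 and 3, and at 154%, 262% and 63.6% on fibrosis arrays 1, 2 and 3. Every fibrosis array was far above every normal array, and the lowest fibrosis value was 9.50 times the highest normal value. The group means were 4.74 ± 2.26% (SD, n = 3) and 159.8 ± 99.4% (SD, n = 3). Fibrosis array 3 was the lowest of its group, and both of its H19 spots were marked, although their signals differed by only 0.03 on the log2 scale.

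With the marked spots left out, so on 2 fibrosis arrays, H19 rose by 5.67 ± 0.53 on the log2 scale (SE, 95% interval 4.41 to 6.92, adjusted p = 0.000466), a 50.8-fold difference. With them kept, on all 3 fibrosis arrays, the difference was 4.99 ± 0.57 (adjusted p = 0.000778), or 31.7-fold. Only 69 of 19731 probes rose by more than H19 in that fit. H19 was called in every setting tried, though with marked spots left out the fits without fibrosis array 1 or 2 and with the slide row as a block rest on 1 fibrosis array, which is assumed to vary like the other arrays. Its size was smallest, 18.8-fold, with another background correction and marked spots kept. Whether more cells of a kind that makes H19 or more H19 RNA per cell gave the rise cannot be told apart in tissue RNA, and the same holds for every gene below.

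Igf2, the next gene beyond H19, went the other way. It stood at 12.9%, 21.4% and 14.3% on the normal arrays and at 6.68%, 7.39% and 7.05% on the fibrosis arrays, with no marked spot on any array. The fibrosis values were nearly equal, the normal values were spread out, and the lowest normal value was 1.74 times the highest fibrosis value. The means were 16.2 ± 4.56% and 7.04 ± 0.356% (SD, n = 3 each). Igf2 fell by 1.16 ± 0.27 on the log2 scale (SE, 95% interval -1.79 to -0.54, adjusted p = 0.0190), which is 2.24-fold.

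The direction for Igf2 held in every setting, but the call did not: the adjusted p was 0.0795 without normal array 2, 0.0618 without normal array 3, 0.0519 without fibrosis array 1, 0.129 with scaling to spike-in RNA, 0.117 with the row of the slide as a block and 0.0555 with no filter on dim probes. Of 19731 probes tested with marked spots kept, 1096 fell by more than Igf2.

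The gap between the changes of the 2 neighbours can be read within each array, where no scaling enters. Against the mean of the normal arrays, H19 gained 6.40, 7.02 and 5.04 log2 units more than Igf2 on fibrosis arrays 1, 2 and 3. On the normal arrays the same quantity was 0.93, -0.15 and -0.78. The mean gap of 6.15 had an exact two-sided permutation p of 0.1, the smallest that 3 against 3 arrays can give.

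**Figure D2:**
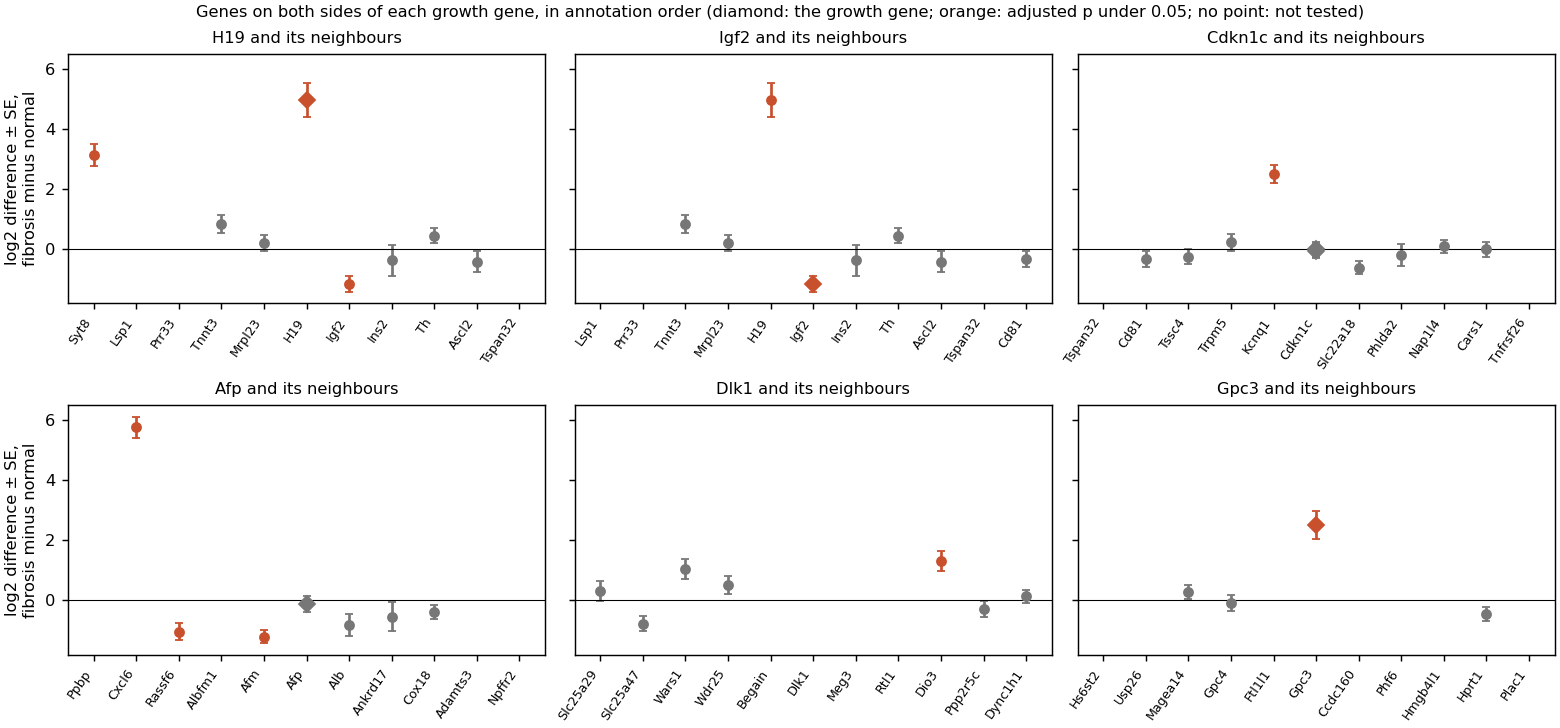
Log2 difference (fibrosis minus normal, ± SE, marked spots kept) of each growth gene, drawn as a diamond, and of up to 5 neighbours on each side in the order of the RefSeq annotation; orange marks an adjusted p under 0.05, a name with no point was not tested, and genes below background in normal liver are drawn at their fitted value, which is no bound. H19 and Igf2 point in opposite directions while Mrpl23, Ins2, Th and Ascl2 around them are grey, and Kcnq1 beside Cdkn1c is orange while Cdkn1c is not.

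The genes around H19, Igf2 and Cdkn1c were read to see whether the whole imprinted stretch of chromosome 1 moved; this choice of 5 symbol-bearing genes on each side was made after values had been seen. Of 18 neighbours, 15 had a probe, 14 were tested, 2 rose and 0 fell (limma, marked spots kept; 3 higher and 1 lower at an unadjusted p under 0.05), where 12.4% of all probes rose and 6.79% fell. Syt8, a synaptotagmin, was not well above background on any normal array and was at least 5.23-fold higher in fibrosis (adjusted p = 0.000747). Kcnq1, a potassium channel gene whose antisense transcript controls the imprint of Cdkn1c, rose by 2.51 ± 0.31 (SE, adjusted p = 0.00106). Of the other genes around H19 and Igf2, Tnnt3 differed by 0.84 ± 0.31 (adjusted p = 0.104), Mrpl23, next to H19, by 0.19 ± 0.27, Ins2, next to Igf2, by -0.38 ± 0.52, Th by 0.44 ± 0.25 and Ascl2 by -0.43 ± 0.35. The imprinted neighbours of Cdkn1c also did not pass, with Slc22a18 at -0.63 ± 0.23 (adjusted p = 0.0944) and Phlda2 at -0.19 ± 0.37.

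The IGF axis holds the ligands, receptors and carriers through which IGF2 acts. Of 12 of its genes tested, 1 rose and 1 fell in the main setting, and of 16 tested with marked spots kept, 1 rose and 3 fell, with a median of -0.28 against -0.07 over all genes. Under the 4 other scalings 1 rose and 2 to 5 fell. List values below are those with marked spots kept, which let more genes be tested. In that setting 12.4% of all tested probes rose and 6.79% fell, against 15.2% and 4.83% in the main setting. An "at least" fold, here and for Syt8 above, sets the fibrosis mean against the lowest level at which any probe counted as above background on each normal array. A probe can lie above that level without counting as above background itself, so such a fold is no strict minimum. Where the probe's own signal was higher than that level, its own signal was used. This was so for Igf1r, whose fold is therefore the fitted difference and no bound.

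Igf1r, the receptor that transmits the IGF2 signal, was not above background on any normal array and rose by 1.95 ± 0.24, or 3.86-fold (adjusted p = 0.00116). Igf2r, the receptor that takes up and clears IGF2, differed by 0.49 ± 0.22 and did not pass (adjusted p = 0.166). On the side of the hormone that drives hepatic IGF, Ghr, the growth hormone receptor, fell by 2.02 ± 0.27 (adjusted p = 0.00156), although another of its probes, used with marked spots left out, read -1.81 and did not pass (adjusted p = 0.239). Igfals, which holds IGFs in the circulating complex, fell by 1.78 ± 0.26 (adjusted p = 0.00259), and Insr, the insulin receptor, fell by 1.30 ± 0.22 (adjusted p = 0.00535). Igf1 itself, the other IGF ligand, stood at -0.76 ± 0.29 and did not pass (adjusted p = 0.110).

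Cdkn1c, which binds and blocks the cyclin-dependent kinases of the cell cycle, was read by 2 probes for different RefSeq transcripts. The probe for NM_182735 stood at 7.29%, 5.32% and 7.01% on the normal arrays and at 6.01%, 8.02% and 5.46% on the fibrosis arrays. The probe for NM_001033757 stood at 34.4%, 36.0% and 31.5% and at 31.6%, 29.5% and 36.2%. In both the groups overlapped throughout. The differences were -0.02 ± 0.27 (95% interval -0.63 to 0.60, adjusted p = 0.976) and -0.35 ± 0.35 (interval -1.20 to 0.51, adjusted p = 0.558).

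For the second of them normal array 2 and fibrosis array 3 drop out when marked spots are left out. With these kept it read -0.07 ± 0.23 (adjusted p = 0.865). For NM_182735 the interval reaches a 1.55-fold lower and a 1.52-fold higher level.

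Among the other CDK inhibitors and G1 cyclins, of 12 tested in the main setting 2 rose and 0 fell (1 lower at an unadjusted p under 0.05 in limma), and of 16 with marked spots kept 3 rose and 1 fell (median 0.59; 2 to 6 rose and 0 to 2 fell under the other scalings).

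Cdkn2a, the inhibitor locus tied to cell senescence, was below background in all normal livers and at least 7.34-fold higher in fibrosis (adjusted p = 5.44e-05). Cdkn1a (p21) rose by 1.54 ± 0.34 (adjusted p = 0.0161) by its brightest probe, while the probe used with marked spots left out read 0.20 (adjusted p = 0.620). Cdkn1b (p27), with Cdkn1a the closest relative of Cdkn1c, differed by 0.16 ± 0.29 (adjusted p = 0.753). E2f1, which switches on S-phase genes, rose by 1.06 ± 0.31 (adjusted p = 0.0478), and Rb1, which holds E2F factors back, fell by 1.98 ± 0.58 (adjusted p = 0.0467). Only 1 member of the list rose without normal array 1 or without normal array 2. The shares over all tested probes were 12.4% higher and 6.79% lower with marked spots kept, and 15.2% and 4.83% in the main setting. The fall of Rb1 was not called without normal array 1, 2 or 3 or without fibrosis array 2 or 3.

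Dlk1, a membrane protein of hepatoblasts related to the Notch ligands and imprinted on chromosome 6, was at the floor of the assay. It stood at 0.312%, 0.325% and 0.399% on the normal arrays and at 0.449%, 1.14% and 0.547% on the fibrosis arrays. It was well above background on 0 normal arrays and on 1 fibrosis array, array 2, where 1 of its 2 spots passed and the spots differed by 1.48 log2 units. No fold is given, because the fibrosis mean did not exceed the level that counts as above background. Tested with no filter on dim probes, it read 0.93 ± 0.40 with an adjusted p of 0.235, and 0.201 with marked spots kept, where 10% of all 30367 probes were called, 7.38% as higher and 2.63% as lower.

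Around Dlk1, 7 of 10 neighbours were tested, 1 rose and 0 fell (limma; 2 higher and 1 lower at an unadjusted p under 0.05). That gene is Dio3, which inactivates thyroid hormone and is imprinted in the same cluster, and it rose by 1.31 ± 0.33 (adjusted p = 0.0276). Meg3, the non-coding RNA of the cluster, had no probe matched here, and Begain, the next gene on the other side, was not above background on any array. In the DLK and Notch list 2 of 12 tested genes rose and 0 fell (limma, 1 lower at an unadjusted p under 0.05, median 0.03). Over all tested probes 12.4% rose and 6.79% fell. In the main setting 1 of 10 rose. Under the other scalings, with marked spots kept, 1 to 3 genes of the list rose and 0 to 3 fell. When any 1 of 5 arrays was left out 1 rose, the exception being fibrosis array 1. The 2 genes that rose were Heyl, a Notch target, and Jag1, a Notch ligand of bile duct formation. Heyl was at least 2.17-fold higher from below background (adjusted p = 0.00101), and Jag1 rose by 1.52 ± 0.39 (adjusted p = 0.0281). Dll4, another ligand, read -0.85 ± 0.28 (adjusted p = 0.0702).

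Of the other imprinted genes, 24 were tested with marked spots kept, and 4 rose and 0 fell (limma; 6 higher and 3 lower at an unadjusted p under 0.05); 4 of 19 rose in the main setting. They are Ppp1r9a (neurabin), at least 6.87-fold higher from below background (adjusted p = 0.00152), Kcnq1, Ndn (necdin, a growth suppressor), which rose by 1.90 ± 0.35 (adjusted p = 0.00730), and Dio3. The list's median was -0.20 against -0.07 for all genes. Of all tested probes 12.4% rose and 6.79% fell with marked spots kept, and 15.2% rose and 4.83% fell in the main setting. Without fibrosis array 3, 7 rose and 3 fell, and under the other scalings 3 to 6 rose and 0 to 4 fell. Mest (1.09 ± 0.38, adjusted p = 0.0855), Plagl1 (-0.62 ± 0.28, adjusted p = 0.171) and Gnas (-0.17 ± 0.23, adjusted p = 0.660) did not pass; these were picked as familiar imprinted genes after values had been seen.

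Gpc3 and Afp, the pair used clinically as oncofetal liver proteins, took different courses. Their promoters are printed to show what sequence the 2 genes start from, from RefSeq on GRCr8, 250 bases before to 50 after the annotated start, 5′ to 3′ on the gene's own strand; both genes lie on the minus strand. Capitals mark a TATA box (TATAAA), a half-site of the hepatocyte factor HNF1 (GTTAAT) and a GC box (GGGCGG), searched on both strands, so that CCGCCC is a GC box on the other strand.
Gpc3, chrX:137157549-137157848: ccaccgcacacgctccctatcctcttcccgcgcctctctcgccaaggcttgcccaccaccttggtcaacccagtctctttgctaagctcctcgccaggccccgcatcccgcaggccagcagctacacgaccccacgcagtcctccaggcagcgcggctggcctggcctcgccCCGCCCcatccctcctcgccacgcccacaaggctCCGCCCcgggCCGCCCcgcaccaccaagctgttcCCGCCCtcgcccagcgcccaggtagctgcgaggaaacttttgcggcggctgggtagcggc
Afp, chr14:17875596-17875895: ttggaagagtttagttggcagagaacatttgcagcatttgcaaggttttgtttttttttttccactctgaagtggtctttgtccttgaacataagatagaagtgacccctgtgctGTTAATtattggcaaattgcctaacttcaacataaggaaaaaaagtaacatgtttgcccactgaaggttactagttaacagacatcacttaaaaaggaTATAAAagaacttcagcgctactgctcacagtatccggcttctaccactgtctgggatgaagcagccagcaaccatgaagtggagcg
The Gpc3 window held 4 GC boxes and neither of the other motifs, and its GC content was 71%. The Afp window held TATAAA at position -37 from the annotated start and GTTAAT at position -135, no GC box, and a GC content of 40.3%. Among 33469 rat promoter windows of this length, 33.1% held a GC box, 14.2% TATAAA and 7.45% GTTAAT, and the median GC content was 51.7%. CCAAT, which 37.5% of windows held, occurred in the Afp window on the other strand and not in that of Gpc3. A match is a run of letters, not a measured binding site.

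Gpc3, a heparan sulfate proteoglycan anchored at the cell surface that binds growth factors and Wnt proteins, stood at 22.8%, 16.7% and 10.2% on the normal arrays and at 111%, 138% and 47.0% on the fibrosis arrays. The groups did not overlap, and the lowest fibrosis value, again array 3 with both spots marked, was 2.06 times the highest normal value. The means were 16.6 ± 6.29% and 98.6 ± 46.7% (SD, n = 3 each). Gpc3 rose by 3.00 ± 0.39 on the log2 scale on 2 fibrosis arrays (SE, 95% interval 2.08 to 3.93, adjusted p = 0.00208), or 8.01-fold, and by 2.51 ± 0.46 on all 3 (adjusted p = 0.00712), or 5.70-fold. It was called in every setting tried, with the same 3 fits resting on 1 fibrosis array as for H19. Its size was smallest, 4.46-fold, with the array median as the scale and marked spots kept. In the fit with marked spots kept, 699 of 19731 probes rose by more.

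H19 and Gpc3 shared the order of the arrays in both groups: fibrosis array 2 highest and array 3 lowest, normal array 1 highest and array 3 lowest. The gain of H19 exceeded that of Gpc3 by 2.34, 2.79 and 2.30 log2 units on the 3 fibrosis arrays. Gpc4, another glypican gene, which lies near Gpc3 on chromosome X, differed by -0.10 ± 0.26 (adjusted p = 0.838), and 0 of the 3 tested neighbours of Gpc3 were called (limma; 0 also at an unadjusted p under 0.05); Hprt1 read -0.47 ± 0.24 (adjusted p = 0.217) and Magea14 0.27 ± 0.23 (adjusted p = 0.467).

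Among the other glypicans, syndecans and heparan sulfate enzymes, 3 of 13 tested rose and 0 fell in the main setting (limma; 1 lower at an unadjusted p under 0.05), and 4 of 18 rose and 1 fell with marked spots kept (median -0.09; 3 to 5 rose and 0 to 3 fell under the other scalings). Gpc1, a glypican of many fetal and tumour tissues, was below background in all normal livers and at least 21.1-fold higher in fibrosis (adjusted p = 0.000148). Sulf1, which trims sulfate from heparan sulfate, was at least 4.60-fold higher from below background (adjusted p = 0.00228). Gpc2, above background on 1 of 3 normal arrays, rose by 2.72 ± 0.69 (adjusted p = 0.0275), and Ext1, which builds the sugar chain, rose by 0.93 ± 0.25 (adjusted p = 0.0357). Notum, an enzyme that inactivates Wnt proteins and can release glypicans, fell by 1.84 ± 0.41 (adjusted p = 0.0161). The number that rose was 2 without normal array 1, normal array 3 or fibrosis array 2, and 0 fell without normal array 1, normal array 3 or fibrosis array 1. Across all tested probes 12.4% rose and 6.79% fell with marked spots kept, and 15.2% and 4.83% in the main setting.

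Afp, the fetal counterpart of albumin, did not follow Gpc3. It stood at 101%, 121% and 147% on the normal arrays and at 96.8%, 129.6% and 109.7% on the fibrosis arrays. The groups overlapped, with means of 123 ± 23.3% and 112 ± 16.5% (SD, n = 3 each). The difference was -0.13 ± 0.26 (SE, 95% interval -0.73 to 0.47, adjusted p = 0.781), which takes in a level 1.66-fold lower and 1.38-fold higher. No spot of the probe was marked and all were well above background. The rise of Gpc3 exceeded the change of Afp by 3.15, 3.04 and 1.73 log2 units on the 3 fibrosis arrays, a mean of 2.64 (exact two-sided permutation p = 0.1, the smallest possible here).

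Afp shares its stretch of chromosome 14 with the albumin gene family. Of the family and the factors known to control Afp, 14 were tested in the main setting with 0 rising and 1 falling, and 20 with marked spots kept with 0 rising and 3 falling (limma; 1 higher and 6 lower at an unadjusted p under 0.05; median -0.65; 0 to 1 rose and 1 to 8 fell under the other scalings). Afm (afamin), next to Afp, fell by 1.22 ± 0.22 (adjusted p = 0.00732), and Gc (vitamin D-binding protein) fell by 0.86 ± 0.22 (adjusted p = 0.0273). Alb, on the other side of Afp, read -0.84 ± 0.37 and did not pass (adjusted p = 0.162). Cebpa, a factor of mature hepatocytes, fell by 1.89 ± 0.27 (adjusted p = 0.00222). The 2 repressors known to silence Afp after birth did not pass: Zhx2 read 0.48 ± 0.22 (adjusted p = 0.166) and Zbtb20 -0.15 ± 0.32 (adjusted p = 0.789). Zhx1, a relative of Zhx2, read -1.08 ± 0.34 (adjusted p = 0.0611). The number that fell was 5 without fibrosis array 2, 6 without fibrosis array 3, and 2 without any 1 of the normal arrays. Among all tested probes 6.79% fell and 12.4% rose with marked spots kept, and 4.83% and 15.2% in the main setting.

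Of 6 tested neighbours of Afp, 1 rose and 2 fell with marked spots kept, where 12.4% of all tested probes rose and 6.79% fell. The rise was that of Cxcl6, a neutrophil chemokine gene, which was below background in normal liver and at least 26.4-fold higher (adjusted p = 5.59e-05). Those that fell were Afm and Rassf6 (-1.05 ± 0.28, adjusted p = 0.0353).

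**Figure D3:**
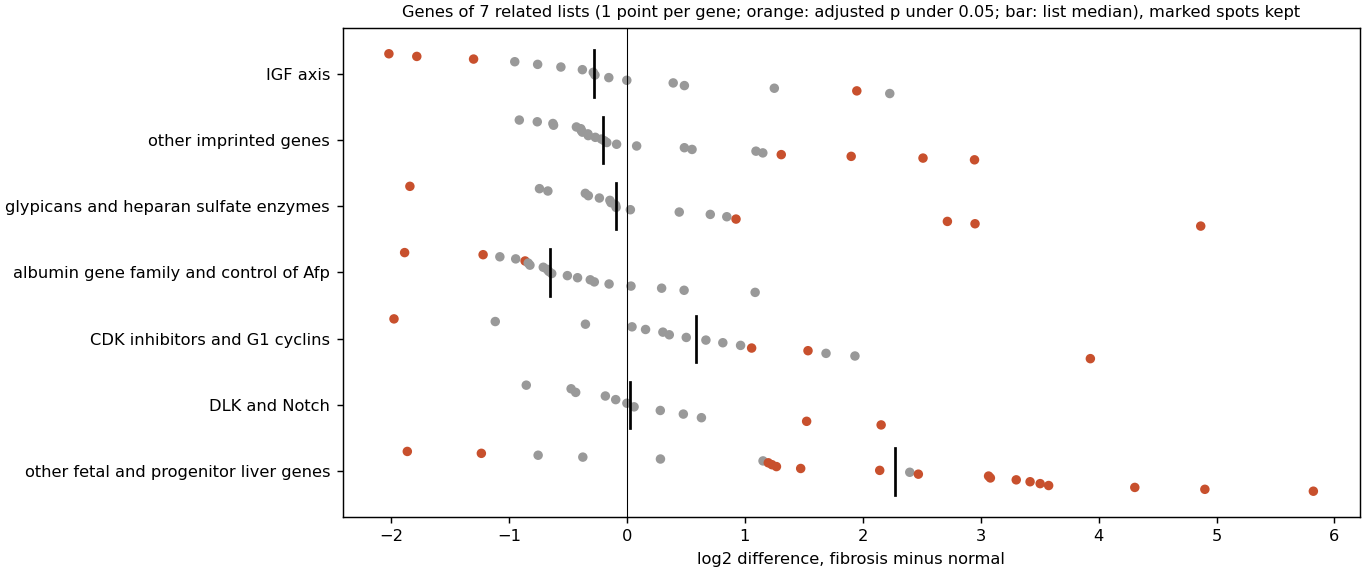
Log2 difference (fibrosis minus normal, marked spots kept) of each tested gene in the 7 lists related to the growth genes, 1 point per gene, orange for an adjusted p under 0.05, with a bar at the list median; genes below background in normal liver are drawn at their fitted value, which is no bound. The medians run from -0.65 for the albumin family to 2.27 for the other fetal and progenitor genes.

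Of the other fetal and progenitor liver genes, 16 were tested in the main setting, of which 11 rose and 2 fell, and of 22 with marked spots kept 15 rose and 2 fell, with a median of 2.27. Over the other scalings 12 to 16 rose and 0 to 3 fell. The largest rises were those of Bex1 (5.82 ± 0.76, adjusted p = 0.00151; above background on 2 of 3 normal arrays), Bex4 (4.90 ± 0.43, adjusted p = 0.000216) and Ncam1 (4.31 ± 0.38, adjusted p = 0.000223), an adhesion molecule of liver progenitors and reactive ductules. Tbx3, a hepatoblast transcription factor, fell by 1.86 ± 0.46 (adjusted p = 0.0259), and Spink1, a secreted protease inhibitor, fell by 1.23 ± 0.33 (adjusted p = 0.0329). Neither was called as lower in the fit without normal array 1, normal array 3, fibrosis array 1 or fibrosis array 2. In those fits 2 to 4 genes of the list were lower at an unadjusted p under 0.05 (limma). Without fibrosis array 3, 1 gene of the list was called as lower. This list was drawn up with the rise of duct and progenitor genes in these livers known, so its count is a description.

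Genes whose course over the 6 arrays was most like that of a growth gene were found by the root mean square difference of their log2 values after each was set to 0 at its normal mean, over 10859 candidate genes. For H19 these were Gprc5a (0.332 log2 units; above background on 3 of the 6 arrays), an orphan receptor, Sctr (0.412), the secretin receptor of bile ducts, and Cldn4 (0.434), a junction protein; Sctr and Cldn4 are also in the cholangiocyte list. For Gpc3 they were Ndrg4 (0.169), Morn4 (0.199) and Cldn6 (0.263; above background on 4 arrays), the claudin of embryonic epithelia. For Igf2 they were Dhrs4 (0.0898), Cyp17a1 (0.124) and Pemt (0.137), enzymes of retinoid, steroid and phosphatidylcholine metabolism. For Afp they were Pabpc1, Gemin4 and Larp4b (0.0804 to 0.109), and for Cdkn1c Zscan21, Dazap1 and Vps28 (0.0401 to 0.0607). Dlk1 lay nearest to Kcnj16, H1f6 and Tnnc2 (0.158 to 0.189), but most of its own values are at background. Likeness over 6 arrays in 2 groups is a description and carries no test.

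Cell type markers moved with the same split of the arrays. Their counts are those with marked spots kept, where 12.4% of all tested probes were called as higher and 6.79% as lower. The summed signal of 9 cholangiocyte markers was 59.2% to 78.1% of the 75th percentile on normal arrays and 879.9% to 1018% on fibrosis arrays, and 7 of 8 tested rose. That of 12 stellate cell and myofibroblast markers went from 899% to 1405% up to 2175% to 4398%, with 8 of 12 rising, and that of 6 portal fibroblast and mesothelial markers from 68.0% to 88.5% up to 442% to 702%, with 3 of 5 rising. Of 9 proliferation markers 7 rose (354% to 459% against 723% to 921%). Of 9 macrophage and leukocyte markers 1 rose and 1 fell, and of the 5 endothelial and 6 erythroid markers 0 were called (limma; 1 of each lower at an unadjusted p under 0.05). The 10 hepatocyte markers summed to 16902% to 18054% on normal and 9820% to 12972% on fibrosis arrays, with 0 called in limma (6 lower at an unadjusted p under 0.05, and 8 called as lower with the array median as the scale).

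Fibrosis array 3, the lowest of its group for H19 and Gpc3, was also the lowest for the stellate cell sum (2175%, against 4078% and 4398% on arrays 1 and 2). It was also lowest for the portal fibroblast and mesothelial sum (442%, against 477% and 702%), the hepatocyte sum and the endothelial sum. Its cholangiocyte sum of 879.9% equalled that of array 1, and its proliferation sum lay between the others. Its macrophage and leukocyte sum and its erythroid sum were the highest. Among normal arrays the stellate cell sum was highest on array 2, while H19 and Gpc3 were highest on array 1. The part of any of these cell types in the values of H19, Gpc3 and Igf2 was not tested.

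**Figure D4:**
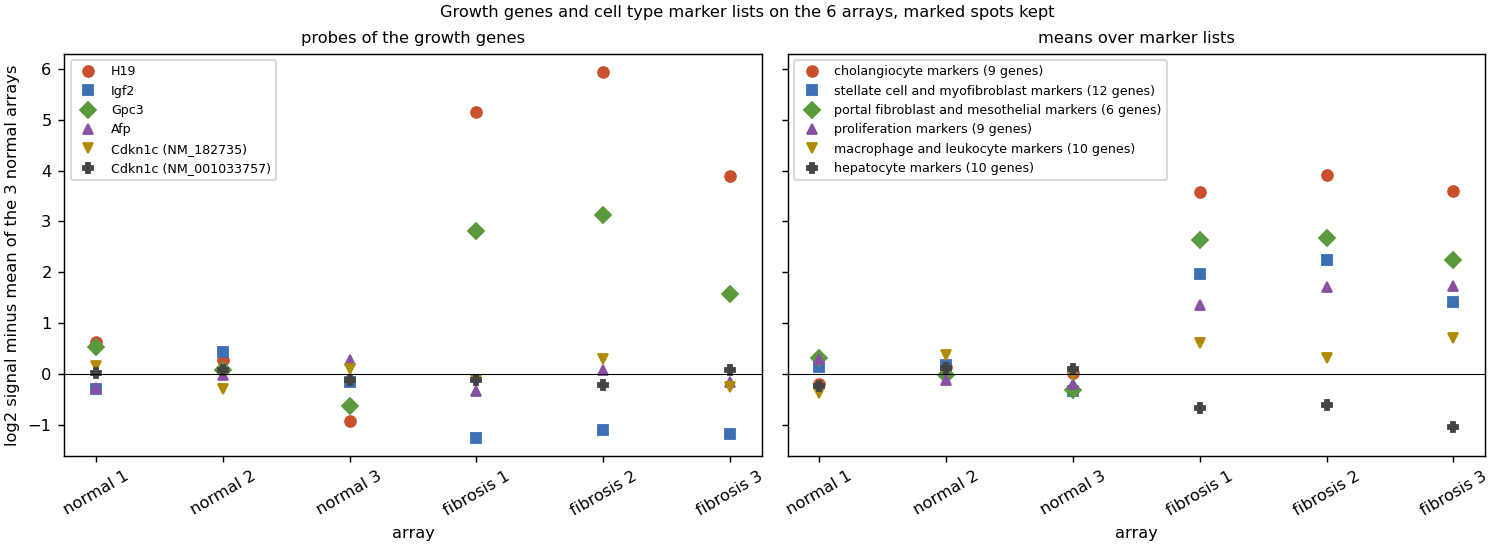
Log2 signal minus the mean of the 3 normal arrays, marked spots kept, for 6 probes of the growth genes (left) and for the mean over the genes of 6 cell type lists (right) on each array. H19 and Gpc3 are highest of their group on fibrosis array 2 and lowest on array 3. The same order holds for the stellate cell list, at 1.43 on array 3 against 1.96 and 2.25 on arrays 1 and 2. It also holds for the portal fibroblast and mesothelial list (2.24 against 2.64 and 2.68) and the hepatocyte list (-1.03 against -0.65 and -0.59). The cholangiocyte list reads 3.58 to 3.92 and is lowest on array 1. The proliferation list and the macrophage and leukocyte list are highest on array 3.

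The 75th percentiles of the arrays lay between 3755 and 4386 units of brightness in normal and between 4840 and 6401 in fibrosis arrays, 67.2% to 78.0% of spots were well above background, 18.8% to 35.2% were marked and 0 were saturated. Pearson correlations over 17536 probes were 0.981 to 0.989 among normal, 0.926 to 0.963 among fibrosis and 0.899 to 0.938 between groups. All arrays shared 1 slide and 1 scan. Fibrosis array 1 sat in the same row of the slide as the normal arrays, and fibrosis arrays 2 and 3 sat in the other. Within the shared row, fibrosis array 1 alone can be set against the 3 normal arrays, and a fit with the row as a block reads this difference. Its spread comes from the normal arrays and, through limma, from the other probes, since for H19 and Gpc3 only 1 array of the other row has unmarked spots. In that fit H19 differed by 5.16 (adjusted p = 0.00958), Gpc3 by 2.83 (adjusted p = 0.0290) and Igf2 by -1.24 (adjusted p = 0.117). With 3 arrays per group their number limits the precision.

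Scaling mattered for the smaller changes. The median over all probes was -0.01 with the 75th percentile, -0.20 after quantile normalization, -0.38 scaled to the array median and 0.34 scaled to spike-in RNA, and the share of called probes that were higher in fibrosis was 75.8%, 55.3%, 46.2% and 93.3%. Against those shifts Igf2 read -1.55, -1.52 and -0.82 under the last 3 settings, H19 5.52, 5.27 and 5.99, and Gpc3 2.87, 2.61 and 3.33. Afp and both Cdkn1c probes took a positive sign with spike-in scaling and did not pass in any setting.

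**Figure D5:**
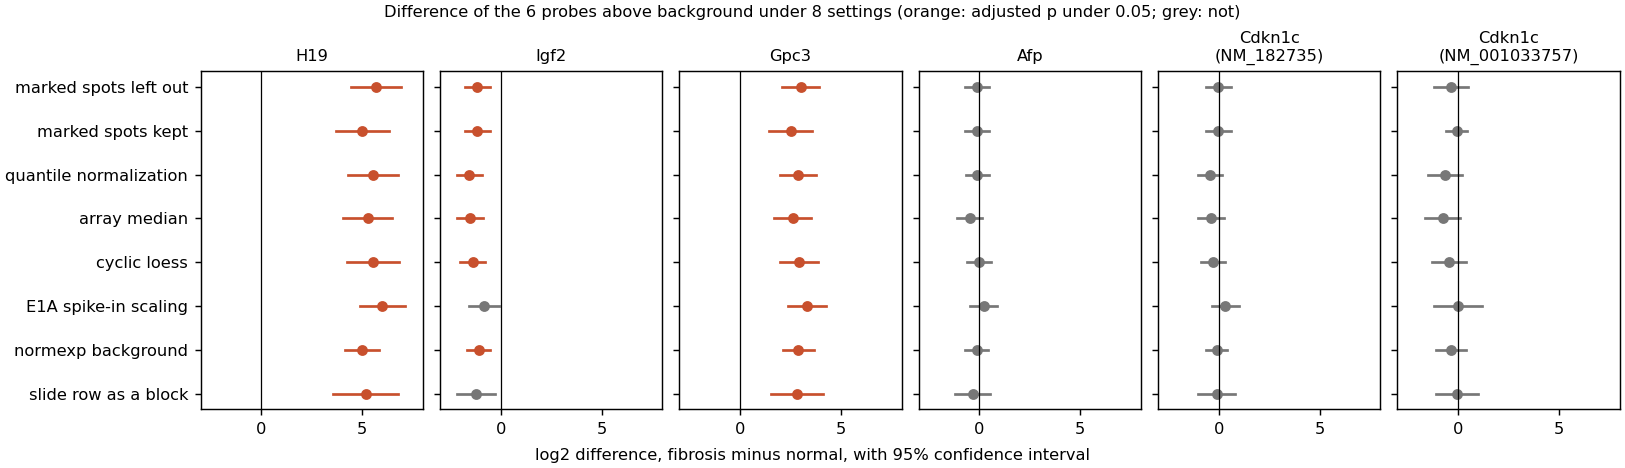
Log2 difference (fibrosis minus normal, with 95% confidence interval) of the 6 tested probes under 8 settings, orange where the adjusted p is under 0.05. H19 and Gpc3 are orange throughout, Igf2 turns grey with spike-in scaling and with the slide row as a block, and Afp and both Cdkn1c probes stay grey, with Afp on either side of 0.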

How the data were processed

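Log2 signal of 6 arrays was analysed, 1 per rat. The deposited intensities were written by Agilent Feature Extraction 11.5.1.1, which subtracted background, removed spatial trends and replaced low values by small positive ones, per the file headers; no scaling between arrays was found. The deposited spot marks (flags of 0 or 1, no unit) were used as given by the authors. The design's annotated build is rn4, per the file headers; genes were named by accession from the RefSeq table of GRCr8, and no coordinates came from it except those of the printed sequences.

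For each non-control spot log2 of the processed signal minus the array's 75th percentile was taken, and spots of a probe were averaged. A probe was tested where at least 0.5 of its spots were well above background on all arrays of a group and at least 2 arrays per group had a value. Groups were compared with limma 3.58.1 (lmFit, eBayes; R 4.3.3) over all tested probes with Benjamini-Hochberg adjustment; the script was tested on simulated data. The members and gene lists were chosen with earlier results of these data known. Every member probe is named. In each list a gene stands by its brightest tested probe, and up to 3 called genes with the largest rise and 3 with the largest fall are named, or the 2 with the smallest p; other list genes named in the text were chosen after values were seen. Replicates were numbered in record order. The alternatives covered marked spots, scaling, background correction, filters, variance models, slide row, thresholds and leaving out each array. Normexp used the deposited median intensities. Combinations with marked spots kept were added after seeing the data. Promoter windows matched 4 of the 6 genes (Igf2, Dlk1, Afp and Gpc3).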

Additional observations from a re-analysis of the deposited data

How the results depend on the processing

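H19 and Gpc3 kept direction and call under all 33 alternatives each, of which those without fibrosis array 1, without fibrosis array 2 and with the slide row as a block, all with marked spots left out, rest on 1 fibrosis array. Igf2 kept its direction, but its call was lost with spike-in scaling (-0.82, adjusted p = 0.129, and 0.139 with marked spots kept), with no filter (-1.16, adjusted p = 0.0555), with the slide row as a block (-1.24, adjusted p = 0.117) and at a threshold of 0.01 (-1.16, adjusted p = 0.0190); leaving out single arrays moved it between -1.31 and -0.95 (-1.13 without fibrosis array 1, where the call was also lost). Sign changes, none of them called, were those of Afp (0.21 with spike-in scaling; -0.27 to 0.01 when single arrays were left out, the positive value, 0.0082, without normal array 3), Cdkn1c NM_182735 (0.33 with spike-in scaling; -0.18 to 0.10 when single arrays were left out, with 0.070, 0.041 and 0.030 without normal array 1, normal array 3 and fibrosis array 1) and Cdkn1c NM_001033757 (0.0022 with spike-in scaling, 0.27 with marked spots kept as well). The cause was not tested. The count of member probes called was 2 or 3 throughout.

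The count over all probes, 2525, was 1606 with the filter on all 6 arrays (fewer probes tested), 4070 with array weights, 1100 with the slide row as a block, 5774 with the array median and marked spots kept, and 1259 at the threshold of 0.01; it ran from 1445 to 2833 when single arrays were left out, and reached 3862 and 4340 without fibrosis array 2 or 3 and with marked spots kept. With marked spots left out, a group left with 1 array for a probe is assumed to vary like the other group. Dlk1 has a value only with no filter, since its signal is near background. No paired analysis was possible because replicate numbers follow the order of the records and the labels pair no rats.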
